A study of Mus musculus with 8 samples.

Results

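Accessibility of chromatin at 10 genes encoding epigenetic regulators was followed in mouse hepatocytes during liver regeneration. The genes were Uhrf1, Dnmt1, Dnmt3a, Ezh1, Ezh2, Eed, Arid1a, Hdac3, Tet2 and Tet3, 10 of 21911 annotated protein-coding genes, and they were chosen by name. Open chromatin had been mapped by bulk ATAC-Seq, which uses Tn5 transposase to cut and tag accessible DNA, on hepatocytes isolated by collagenase perfusion from C57BL/6 mice fed a normal diet and operated on at 10 to 12 weeks of age by the labels, whereas the study's methods give a slightly younger age. The groups were healthy, undamaged liver (0 h) and liver taken 48, 72 or 96 h after partial hepatectomy (PHx), an operation that removes part of the organ. Each group had 2 libraries, and no group carried an engineered allele or a further treatment. The labels do not name the animal behind a library, so the spread between 2 libraries of a group may be in part technical. The study describes separate hepatocyte preparations as biological replicates, and more of them at 0 and 48 h than the 2 libraries used here. Hepatocytes were isolated in bulk, so fewer open cells and less opening per cell cannot be told apart.

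The 10 proteins write, read or remove marks that keep chromatin closed or open. Dnmt1, brought to newly copied DNA by Uhrf1, passes methylation of CpG sites on to daughter strands, Dnmt3a places new methylation, and Tet2 and Tet3 oxidise it, which starts its removal. Ezh1 and Ezh2 are the alternative catalytic subunits of Polycomb repressive complex 2, which methylates histone H3 and needs Eed for its activity, Arid1a is a DNA-binding subunit of the SWI/SNF nucleosome remodeller, and Hdac3 is the histone deacetylase of the NCoR and SMRT corepressors. Hepatocytes rest in the adult liver and re-enter the cell cycle after PHx, when the marks these proteins handle have to be copied or reset.

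Each library came as a list of peaks. Lines that shared an interval were collapsed, which left between 105206 and 154577 distinct intervals per library, and intervals were ranked by the peak caller's −log10 p, rank 1 being the strongest of its list. A low rank number therefore means strong accessibility. The −log10 p of the interval ranked 100000 was 2.54 to 4.91. Read counts were not part of these lists, so the depth behind a rank is unknown and only the spread between libraries measures its error. The list of 72 h replicate 2, the longest of the 8, is named by another scheme than the rest, and the 72 h differences without it are given with the tests. Promoters of 5 to 10 of 10 hepatocyte marker genes were among the 100000 strongest intervals of a library, and those of Apoa1, Hnf4a, Serpinc1, Cps1 and F2 were so in all 8. The same held for 0 of 5 lymphocyte markers in every library, 0 to 2 of 5 macrophage markers, 2 of 5 endothelial markers, 3 to 4 of 5 stellate cell markers and 2 to 4 of 5 cholangiocyte markers. The part of such cells in the results was not tested.

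The promoter of a gene was every interval within 1 kb of one of its annotated starts, and its rank was that of the strongest such interval. The DNA under the strongest summits of 5 promoters carried the results that follow. Bases are shown 5′ to 3′ on the plus strand of GRCm38.p6 (mm10). Capitals mark matches to the motifs E2F, NFY and SP1, which are spelled out further on, and NRF1, and each stretch stops where a transcribed untranslated exon begins. Uhrf1 is shown at both of its promoter intervals because they changed places in strength, and Arid1a because its promoter was the one that ranked above 0 h at every time point.
Uhrf1, downstream interval, chr17:56304104-56304303: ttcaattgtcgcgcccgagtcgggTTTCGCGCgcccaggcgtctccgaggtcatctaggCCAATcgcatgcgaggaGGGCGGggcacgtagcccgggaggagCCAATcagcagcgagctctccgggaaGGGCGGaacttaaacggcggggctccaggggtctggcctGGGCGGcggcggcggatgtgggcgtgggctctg
Uhrf1, upstream interval, chr17:56303088-56303287: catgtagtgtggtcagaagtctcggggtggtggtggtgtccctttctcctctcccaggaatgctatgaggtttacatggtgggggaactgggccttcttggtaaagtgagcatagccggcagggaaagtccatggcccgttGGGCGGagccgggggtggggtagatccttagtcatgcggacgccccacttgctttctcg
Dnmt1, chr9:20952980-20953073: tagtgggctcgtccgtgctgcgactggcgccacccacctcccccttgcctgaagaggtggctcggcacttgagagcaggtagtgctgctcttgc
Dnmt3a, chr12:3806308-3806507: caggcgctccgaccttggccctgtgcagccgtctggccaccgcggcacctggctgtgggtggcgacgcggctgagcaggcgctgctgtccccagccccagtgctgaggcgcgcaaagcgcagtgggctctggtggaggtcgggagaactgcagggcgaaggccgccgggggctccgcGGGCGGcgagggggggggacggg
Ezh2, chr6:47595076-47595275: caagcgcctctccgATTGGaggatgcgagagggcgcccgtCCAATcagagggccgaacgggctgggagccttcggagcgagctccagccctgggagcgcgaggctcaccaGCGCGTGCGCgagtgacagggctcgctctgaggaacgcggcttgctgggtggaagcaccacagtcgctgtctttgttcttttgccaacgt
Arid1a, chr4:133754413-133754612: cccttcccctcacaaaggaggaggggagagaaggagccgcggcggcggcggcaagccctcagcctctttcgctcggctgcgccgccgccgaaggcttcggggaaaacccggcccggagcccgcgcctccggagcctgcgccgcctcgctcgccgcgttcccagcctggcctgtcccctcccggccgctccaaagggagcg

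All 10 promoters held an interval in all 8 lists, but at very different strengths. The Tet3 promoter was the strongest, with ranks between 120 and 677 and a fold enrichment over local background of 11.7 to 18.9, and it ranked above 98.8% of the 13200 coding promoters that were present in every list. Dnmt3a followed, ahead of 86.6% of those promoters, then Tet2 with 81.4% and Arid1a with 72.8%. Ezh2 stood at 58.2%, Eed at 57.5% and Hdac3 at 50.3%. Dnmt1 stood at 38.3%, Ezh1 at 21.1% and Uhrf1 at 19.1%. From Dnmt3a to Uhrf1 the rank range of each gene overlapped that of the next in this order, and only that of Tet3 stood apart.

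**Figure D1:**
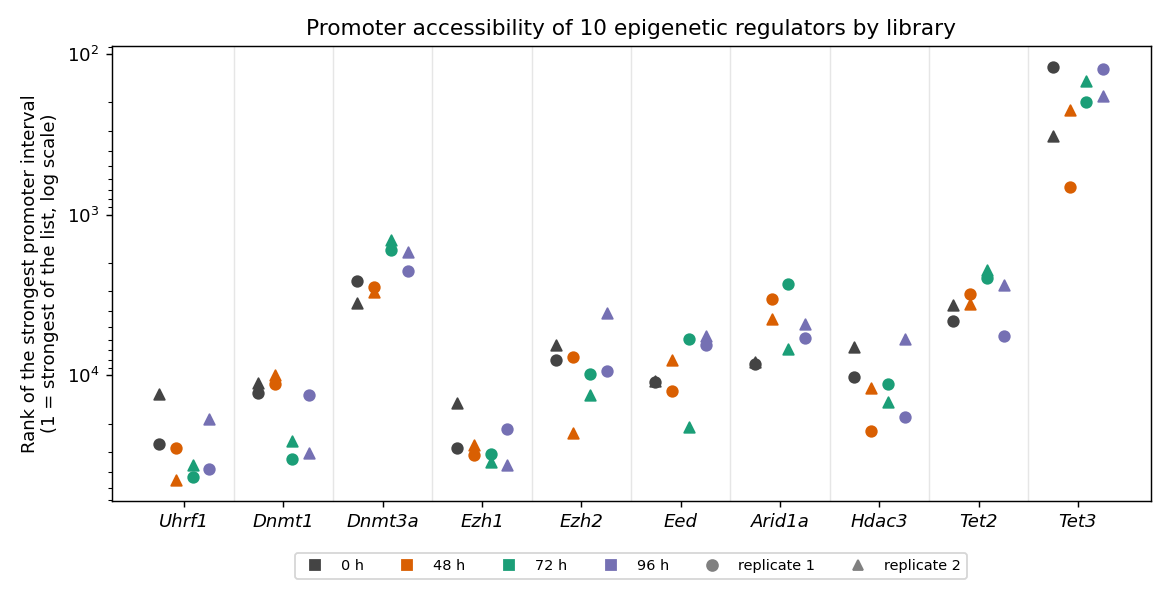
Rank of the strongest promoter interval of each of the 10 genes (vertical axis, log scale, strongest at the top) in each of the 8 libraries, coloured by time after PHx and shaped by replicate. The 6 Arid1a points after PHx, from 2708 to 6856, all lie above both 0 h points at 8277 and 8561, whereas the Tet3 points stay between 120 and 677.

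Differences between time points were tested with limma on strength, defined as −log2(rank), so that a positive difference means a promoter nearer the top of its list after PHx and a difference of 1 is a rank number 2 times smaller. The test was run on all 13200 promoters, with p-values adjusted over all of them by the Benjamini-Hochberg method. No member promoter passed an adjusted p of 0.05 at 48, 72 or 96 h or for the mean of the 3 times, and 0, 2, 0 and 1 of the 10 had an unadjusted p under 0.05. Over all promoters limma called 5 stronger (0.0379%) and 1 weaker (0.00758%) at 48 h, 0 at 72 h, 1 weaker (0.00758%) at 96 h and 3 stronger (0.0227%) for the mean, and 12.5%, 9.86%, 5.28% and 10.6% had an unadjusted p under 0.05. Tested on simulated data, shifts of 1 or 2 in −log2(rank) between 48 h and 0 h were found in 0% of 200 changed promoters and shifts of 3 in 50.5%, so differences of the size seen here could not be called with 2 libraries per group. The median of all promoters was itself −0.20 at 48 h, −0.24 at 72 h and −0.09 at 96 h, and the members' medians were −0.21, −0.34 and 0.14. Leaving out 1 library moved 23 of the 30 member differences from 0 h by more than 1.5 times, and the 7 that moved less were Dnmt1, Dnmt3a, Ezh2 and Tet2 at 72 h, Eed at 96 h and Arid1a at 48 and 96 h. Without 72 h replicate 2 the 72 h differences were −1.21 for Uhrf1, −1.46 for Dnmt1, 0.87 for Dnmt3a, −0.58 for Ezh1, −0.44 for Ezh2, 0.87 for Eed, 1.64 for Arid1a, −0.46 for Hdac3, 0.72 for Tet2 and −0.0060 for Tet3.

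**Figure D2:**
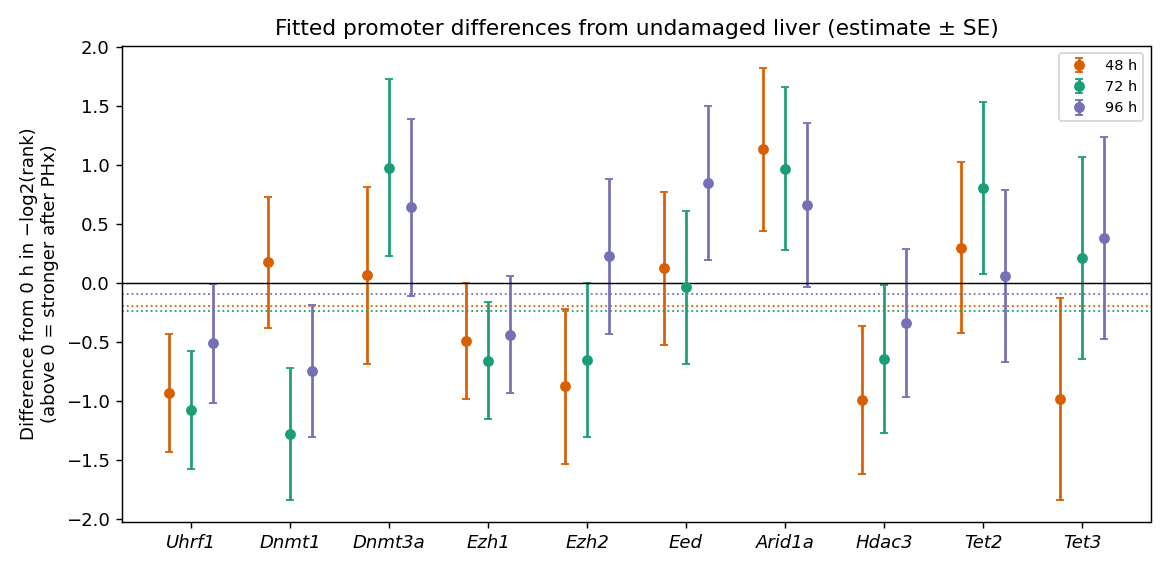
Fitted difference from 0 h in −log2(rank) with its standard error for each promoter at 48, 72 and 96 h, with dotted lines in the same colours at the median of all 13200 promoters. Dnmt1 at 72 h has the lowest estimate, −1.28, and Arid1a at 48 h the highest, 1.13.

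A second description counted promoters whose 2 libraries at a time both lay beyond both 0 h libraries. At 48 h Arid1a and Tet2 were stronger in this sense, 2 of 10 members against 16.2% of all promoters, and Uhrf1 and Hdac3 weaker, 2 of 10 against 29.2%. At 72 h Dnmt3a, Arid1a and Tet2 were stronger, 3 of 10 against 14.6%, and Uhrf1, Dnmt1, Ezh1, Ezh2 and Hdac3 weaker, 5 of 10 against 32.2%. At 96 h Dnmt3a, Eed and Arid1a were stronger, 3 of 10 against 13.6%, and Dnmt1 was weaker, 1 of 10 against 19.9%. The background itself depends on the scale: with percentiles within each list in place of ranks the shares of all promoters were 19.7% stronger and 22.8% weaker at 48 h, 25.3% and 17.2% at 72 h, then 21.5% and 12.4% at 96 h, and with ranks by fold enrichment at 48 h they were 20.2% and 20.1%. With so few members none of these counts can be read as a property of the set. The 3 time points share the same 0 h libraries.

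Arid1a was the one member stronger in all 6 PHx libraries than in both 0 h libraries, which held for 4.14% of all promoters. Arid1a (chr4:133679008-133756769, minus strand) has annotated starts at 133756769 and at 133753611, and the strong interval belonged to the second, downstream start. It ranked 8561 and 8277 in undamaged liver, 3335 and 4437 at 48 h, 2708 and 6856 at 72 h, then 5896 and 4822 at 96 h. The 0 h libraries differed little from each other and lay below every other library. The difference from 0 h was 1.13 ± 0.69 (SE) at 48 h, 0.97 ± 0.69 at 72 h and 0.66 ± 0.69 at 96 h, with adjusted p-values from limma of 0.501, 0.645 and 0.968. The 72 h value was 0.30 without 72 h replicate 1 and 1.64 without replicate 2. The direction was the same at all 3 times under the other ranking and scaling settings. At the upstream start the ranks were 36590 and 36712 in undamaged liver, 33275 and 41860 at 48 h, 27102 and 53012 at 72 h, then 39273 and 18375 at 96 h. That start overlapped 0 h at every time, so only the downstream start showed the separation, and the difference between the starts was not tested.

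**Figure D3:**
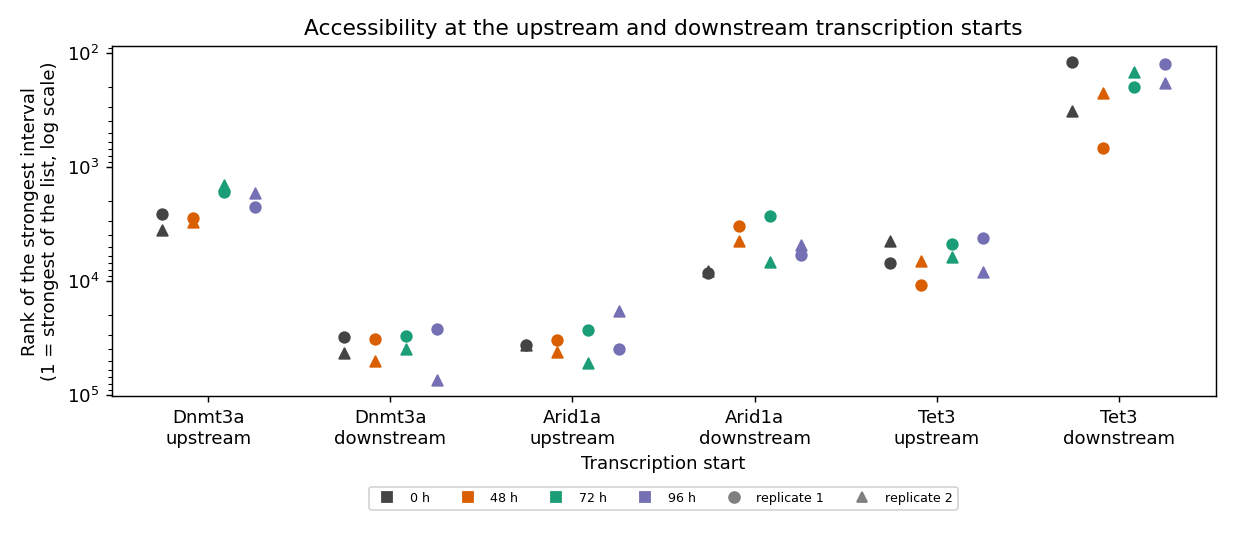
Ranks of the strongest interval at the upstream and downstream annotated start of Dnmt3a, Arid1a and Tet3 in the 8 libraries (vertical axis, log scale, strongest at the top). In Dnmt3a the upstream start is the stronger one in every library, and in Arid1a and Tet3 the downstream one.

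Uhrf1 (chr17:56303321-56323486, plus strand), whose product recruits Dnmt1 to hemimethylated DNA, had 2 promoter intervals in every list. The downstream one, at 56303857 to 56304658, covered the last of its annotated starts, 56304348, and ranked 26644 and 13096 in undamaged liver, 28371 and 71233 at 48 h, 43183 and 40998 at 72 h, then 42826 and 18641 at 96 h. The upstream one, at 56302724 to 56303729, covered the first start, 56303321, and ranked 47480 and 58059 in undamaged liver, 43800 and 44836 at 48 h, 52140 and 35998 at 72 h, then 38142 and 66086 at 96 h. The downstream interval was thus the stronger in both 0 h libraries, and the upstream interval in 48 h replicate 2, 72 h replicate 2 and 96 h replicate 1. By the stronger of both, the difference from 0 h was −0.93 ± 0.50 at 48 h, −1.08 ± 0.50 at 72 h and −0.51 ± 0.50 at 96 h (adjusted p = 0.436, 0.492 and 0.962, limma). Its weaker rank at 48 and 72 h also held with ranks by fold enrichment and with percentiles. The mean over the 3 times was −0.84 ± 0.41 against a median of −0.17 for all promoters, with an unadjusted p of 0.0472 and an adjusted p of 0.464 from limma. Leaving out either 0 h library moved this mean, to −1.35 for replicate 1 and −0.33 for replicate 2. The fold enrichment was 7.87 and 12.6 at 0 h and between 4.27 and 8.67 after PHx.

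Dnmt1 (chr9:20907209-20959888, minus strand), the maintenance methyltransferase, had the smallest F-test p of the members over the 4 time points. Its promoter ranked 12815 and 11152 in undamaged liver, 11328 and 9933 at 48 h, 32993 and 25634 at 72 h, then 13217 and 30434 at 96 h. The libraries at 0 and 48 h lay together, both 72 h libraries lay well below them, and the 96 h libraries disagreed with each other. The difference from 0 h was 0.17 ± 0.56 at 48 h, −1.28 ± 0.56 at 72 h and −0.75 ± 0.56 at 96 h (adjusted p = 0.928, 0.453 and 0.948, limma), and the estimate at 48 h turned to −0.26 with ranks by fold enrichment. At 48 h Dnmt1 counted as weaker with ranks by fold enrichment and as stronger with percentiles, so its side depended on the scale. With percentiles it no longer counted as weaker at 96 h. The 96 h value rested on 1 library, being −1.35 without replicate 1 and −0.14 without replicate 2. Between 72 and 48 h it was −1.46 ± 0.56 (unadjusted p = 0.0132, adjusted p = 0.723, limma), and the F-test gave an unadjusted p of 0.0463 and an adjusted p of 0.564 (8.76% of all promoters had an unadjusted F-test p under 0.05, and 0.0152% an adjusted one). All these intervals belonged to the starts between 20952605 and 20952979, and the most upstream annotated start, at 20959888, had no interval in any list. An intronic interval near the used starts, at 20951352 to 20951833, ranked 56993 and 35377 at 48 h, was missing from both 0 h lists, and came back at 107377 in 72 h replicate 2 and at 76485 in 96 h replicate 1. The promoters most like that of Dnmt1 over the 8 libraries were those of Nosip and Prrg2, which share 1 interval (r = 0.962), and of Tspo (r = 0.962). These correlations describe 8 libraries and were picked from all promoters.

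Dnmt3a (chr12:3806007-3914443, plus strand), the de novo methyltransferase, had the smallest exact p of the members in a test of the spread between time points. This p was not adjusted for the number of members, and with ranks by fold enrichment it was no longer under 0.05. Its strong interval lay at the upstream starts, 3807030 to 3807160, and ranked 2600 and 3559 in undamaged liver, 2807 and 3017 at 48 h, 1664 and 1438 at 72 h, then 2249 and 1698 at 96 h. Both libraries at 72 h and both at 96 h were stronger than both at 0 h, and those at 48 h lay between the 0 h values. With ranks by fold enrichment Dnmt3a counted as stronger at 48 and 72 h and no longer at 96 h. An exact permutation test that re-paired the 8 libraries in every possible way, which asks whether libraries of 1 time point lie closer together than others (one-sided), gave p = 0.0476 with a smallest possible p of 0.00952. This was 1 of 10 members under 0.05, against 5.80% of all promoters, and the other members had exact p-values between 0.124 and 0.571. The limma difference was 0.06 ± 0.75 at 48 h, 0.98 ± 0.75 at 72 h and 0.64 ± 0.75 at 96 h, with adjusted p-values of 0.980, 0.672 and 0.975. The second start of Dnmt3a, near 3891728, ranked between 26606 and 74433 and overlapped 0 h at every time.

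Tet2 (chr3:133463679-133545139, minus strand) and Tet3 (chr6:83362373-83459084, minus strand) encode dioxygenases that oxidise methylated cytosine. The Tet2 promoter ranked 4612 and 3642 in undamaged liver, 3108 and 3578 at 48 h, 2486 and 2224 at 72 h, then 5663 and 2739 at 96 h. It was stronger at 48 and 72 h, by a narrow margin at 48 h, and the 96 h libraries fell on both sides of 0 h. The limma differences were 0.30 ± 0.73, 0.80 ± 0.73 and 0.06 ± 0.73 (adjusted p = 0.901, 0.729 and 0.996). With ranks by fold enrichment Tet2 no longer counted as stronger at 48 or 72 h. The Tet3 promoter ranked 120 and 324 in undamaged liver, 677 and 225 at 48 h, 198 and 147 at 72 h, then 125 and 184 at 96 h. The differences were −0.99, 0.21 and 0.38 with an SE of 0.85 each (adjusted p = 0.664, 0.951 and 0.980, limma), and the 72 h estimate turned to −0.29 with ranks by fold enrichment. By rank Tet3 was the one member that overlapped 0 h at all 3 times, as did 27.2% of all promoters, but with ranks by fold enrichment it counted as weaker at 72 h. Its strongest interval lay at the downstream start, 83441675, and the upstream start, 83456392, ranked between 4242 and 10827, so both starts were open in every library.

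Among the Polycomb genes, by rank, Ezh1 and Ezh2 counted as weaker at 72 h and overlapped 0 h otherwise, and Eed counted as stronger at 96 h and overlapped 0 h otherwise. Ezh1 (chr11:101191115-101226463, minus strand), the subunit typical of resting cells, ranked 28509 and 14914 in undamaged liver, 31143 and 27006 at 48 h, 30732 and 34517 at 72 h, then 21593 and 36150 at 96 h. Its differences were −0.49, −0.66 and −0.44 with an SE of 0.49 each (adjusted p = 0.718, 0.660 and 0.972, limma), and it counted as weaker at 72 h except on the percentile scale. Ezh2 (chr6:47530139-47595341, minus strand), the subunit typical of dividing cells, ranked 8073 and 6515 in undamaged liver, 7744 and 22939 at 48 h, 9817 and 13263 at 72 h, then 9356 and 4115 at 96 h. The 48 h libraries of Ezh2 differed most, 72 h lay below 0 h and 96 h spanned it. The differences were −0.88, −0.65 and 0.23 with an SE of 0.66 each (adjusted p = 0.599, 0.751 and 0.986, limma), and the 48 h one was −0.095 when replicate 2 was left out and −1.66 when replicate 1 was. A second annotated Ezh2 start, at 47577660, had no interval in any list.

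Eed (chr7:89954654-89980983, minus strand), the subunit that binds trimethylated H3, ranked 11002 and 10803 in undamaged liver, 12543 and 7995 at 48 h, 5959 and 21026 at 72 h, then 6450 and 5700 at 96 h. By rank only the 96 h libraries lay together and above 0 h, with a difference of 0.85 ± 0.65 (adjusted p = 0.955, limma). With ranks by fold enrichment Eed also counted as stronger at 48 h. At 48 and 72 h the Eed differences were 0.12 and −0.04, and the latter turned to 0.37 with ranks by fold enrichment. Hdac3 (chr18:37935844-37955016, minus strand) ranked 10214 and 6646 in undamaged liver, 22268 and 12079 at 48 h, 11313 and 14754 at 72 h, then 18294 and 5927 at 96 h. It was weaker at 48 and 72 h, also with ranks by fold enrichment and with percentiles. On the percentile scale 72 h was close to a tie, at 91.937 in 72 h replicate 1 against 91.943 in 0 h replicate 1. The differences were −0.99, −0.65 and −0.34 with an SE of 0.63 each (adjusted p = 0.516, 0.744 and 0.978, limma). The Hdac3 promoter is shared with the divergent gene Rell2, so the interval cannot be assigned to Hdac3 alone.

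The base composition and motifs of the 200 bp at the strongest promoter summit were compared with those of all 13200 promoters, as a description. GC content ran from 63.5% in Dnmt1 to 77% in Tet3, around a median of 66.5% for all promoters. The observed to expected ratio of CpG was lowest in Dnmt1, 0.546, below which lay 17.5% of promoters, and highest in Tet2, 1.13, below which lay 94.3%.
Motifs were searched on both strands. An E2F site (TTTCCCGC, TTTGGCGC, TTTCGCGC or TTTGCCGC), the element of many replication genes, was present in Uhrf1 alone, in the downstream interval printed above, and in 2.51% of all promoters. NRF1 was present in Dnmt1, Ezh1 and Ezh2 and in 6.39% of promoters, and NFY (CCAAT) in Uhrf1, Ezh2 and Tet3 and in 25.7%. SP1 (GGGCGG) was present in 7 members, Uhrf1, Dnmt3a, Ezh1, Eed, Hdac3, Tet2 and Tet3, and in 61.7% of promoters, and FOXA (TGTTTAC or TATTTAC) in Ezh1 and in 2.02%. ETS (CCGGAAG), YY1 (AAGATGGC), CREB (TGACGTCA), the E-box CACGTG, AP-1 (TGANTCA), HNF4 (CAAAGTCCA or CAAAGGTCA), C/EBP (TTNNGCAA) and CTCF were found in 0 of the 10 windows. Bases of untranslated exons within a window were searched and are not printed, so the Dnmt1 match lies outside the stretch shown.

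Outside promoters, the windows from 10 kb before to 10 kb after each gene held 270 of 315767 merged regions, of which 245 were distal, 18 lay at a start of the gene itself and 7 at a start of a neighbour. Of the 245, 185 had their summit in an intron, 25 between genes, 20 in a coding exon and 15 in an untranslated exon. Of these, 136 reached the 100000 strongest intervals of at least 1 library and 23 did so in all 8. The windows differed in length: Dnmt3a had 52 distal regions in 128.4 kb, Tet3 47 in 116.7 kb, Tet2 38 in 101.5 kb, Arid1a 33 in 97.8 kb and Eed 5 in 46.3 kb. Over the 10 windows the number of strong intervals was 84 and 83 in undamaged liver, 92 and 84 at 48 h, 89 and 89 at 72 h, then 78 and 75 at 96 h. They covered between 3.89% and 5.63% of the 783273 bp. The counts at 72 h lay above and those at 96 h below both 0 h libraries at this cutoff, but these directions depended on it: among the 50000 strongest intervals the mean was 37 at 72 h against 37.5 at 0 h, and among all intervals 115 at 96 h against 101.5. At 48 h the counts lay above both 0 h libraries in Tet3, from 11 and 13 to 16 and 14, in Dnmt1, from 6 and 6 to 10 and 9, in Ezh2, from 4 and 4 to 8 and 5, and below them in Dnmt3a, from 22 and 23 to 16 and 19, and in Hdac3, from 9 and 8 to 6 and 5. The other 5 genes had 48 h counts that overlapped those at 0 h or equalled one of them. How often windows of other genes separate in this way was not computed, so these counts cannot be read as particular to the genes. The mean covered share of the window moved with the counts in Dnmt1, Ezh2, Dnmt3a and Hdac3. In Tet3 it went the other way, from 5.86% at 0 h to 5.26% at 48 h.

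**Figure D4:**
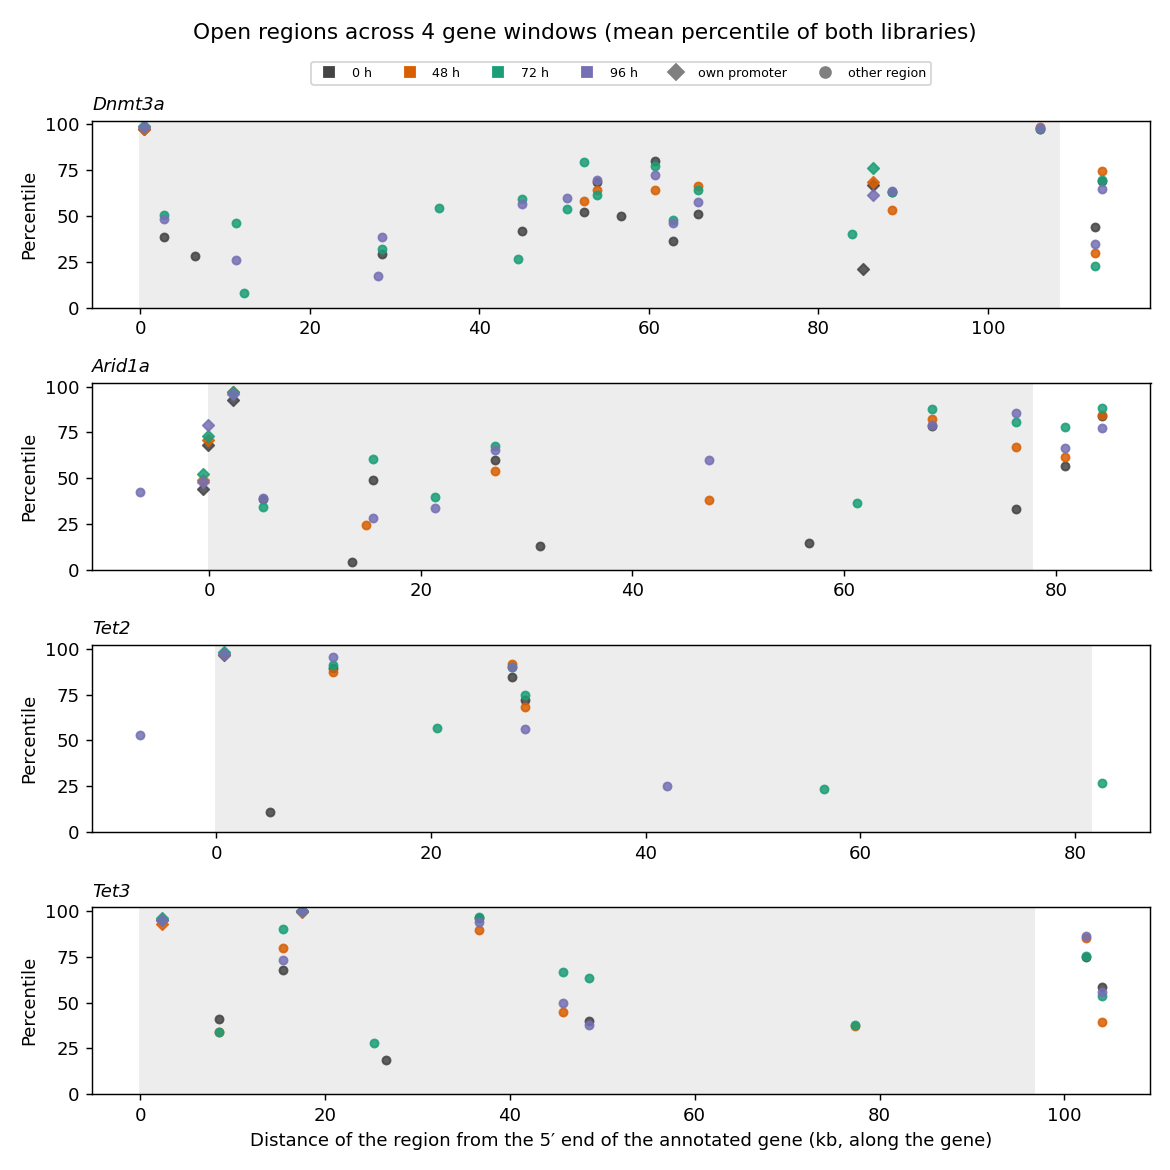
Merged regions along Dnmt3a, Arid1a, Tet2 and Tet3, placed by the distance of their summit from the 5′ end of the gene (horizontal axis, kb; grey, gene body) against the mean percentile of both libraries of a time point (vertical axis; 100 is the strongest interval). Points are drawn where both libraries listed the region, diamonds are the gene's own promoters, and the strong regions near the 3′ end of Dnmt3a and within Tet2 and Tet3 appear at all 4 times.

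Distal regions present in all 8 lists could be tested, and 25 of the 245 were. With limma on 57473 such regions of the genome, 0 of the 25 passed an adjusted p of 0.05 at any time or for the mean of the 3 times. Over the genome limma called 5 regions stronger (0.0087%) and 2 weaker (0.00348%) at 48 h and 0 in the other comparisons. At 48, 72 and 96 h and for the mean, 1, 4, 3 and 3 of the 25 had an unadjusted p under 0.05, against 11.7%, 7.70%, 6.55% and 9.26% of all 44011 distal regions. Counted by separation from both 0 h libraries, 6 of 25 were stronger and 6 weaker at 48 h (20.5% and 22.9% of all distal regions), 5 and 6 at 72 h (20.7% and 20.3%), and 3 and 8 at 96 h (17% and 19.3%). With 25 regions these shares differ from those of the genome by a few regions at most. Separations of distal regions were counted by rank alone, although the lists differ in length.

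By rank, 1 of the 25 was weaker than 0 h at all 3 times, as were 5.56% of all distal regions, and 1 was stronger, as were 4.53%. The weaker one lay in the Tet3 window, in an intron of the neighbour Bola3 at chr6:83354738-83355761, ranked 52919 and 43560 in undamaged liver and between 54076 and 79054 after PHx, and had a mean difference of −0.50 ± 0.31 (adjusted p = 0.635, limma). Its side at 96 h depended on the scale, since the list of 96 h replicate 1 held 144736 intervals against 126773 and 105206 at 0 h. By percentile within the list, 96 h replicate 1 lay above both 0 h libraries. The stronger one lay in Arid1a, in its last coding exon (exon 20 of 20), at chr4:133680147-133680818. Both were singled out after their values were seen. The Arid1a region ranked 60891 and 90207 in undamaged liver, 42138 and 41898 at 48 h, 34380 and 22371 at 72 h, then 22576 and 16205 at 96 h. Every PHx library was stronger than both 0 h libraries, and the group values did not overlap between 48 h and the later times. The difference was 0.82 ± 0.47 at 48 h, 1.42 ± 0.47 at 72 h, 1.95 ± 0.47 at 96 h and 1.40 ± 0.39 for the mean. The unadjusted p for the mean was 8.19e-04 and the adjusted p 0.262 (limma). With its strong downstream start, Arid1a thus held both a promoter and a distal region that stood above 0 h in all PHx libraries. The 200 bp at its summit, shown because this was the lowest p among the 25 regions, hold 1 match to the AP-1 motif, in capitals, which 8.88% of distal regions also hold.
Arid1a, last coding exon, chr4:133680413-133680612: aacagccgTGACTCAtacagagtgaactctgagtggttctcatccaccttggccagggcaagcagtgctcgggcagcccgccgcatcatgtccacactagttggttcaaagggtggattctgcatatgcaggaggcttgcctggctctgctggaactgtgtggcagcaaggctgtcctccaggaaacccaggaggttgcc

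The region with the highest mean strength of each gene named the other distal regions. In Dnmt3a it lay in the untranslated part of the last exon, at chr12:3911358-3912565, and ranked 3478 and 2168 in undamaged liver, 2843 and 987 at 48 h, 4798 and 2874 at 72 h, then 2010 and 3920 at 96 h. Its ranks overlapped those of the gene's main promoter, and it overlapped 0 h at every time (mean difference 0.08 ± 0.65, adjusted p = 0.981, limma). In Tet3 it was intronic, at chr6:83421930-83422862, and ranked 5633 and 2998 in undamaged liver, 15660 and 10163 at 48 h, 6354 and 3023 at 72 h, then 5996 and 9378 at 96 h. By rank it was thus weaker at 48 and 96 h and not at 72 h, and the difference at 48 h was −1.62 ± 0.70 (unadjusted p = 0.0263, adjusted p = 0.358, limma). The margin at 96 h was narrow, 5996 against 5633, and by percentile within the list 96 h overlapped 0 h.

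In Tet2 the strongest distal region was intronic, at chr3:133533965-133534660, and ranked 13948 and 10411 in undamaged liver, 17024 and 14987 at 48 h, 6169 and 20364 at 72 h, then 8193 and 4096 at 96 h. By rank, both 48 h libraries were weaker and both 96 h libraries stronger than 0 h. The lists differ in length, with 139376 intervals in 48 h replicate 2 and 126773 in 0 h replicate 1. By percentile within the list, 48 h replicate 2 lay above 0 h replicate 1, so 48 h then overlapped 0 h. The sequence of this region is shown because, by rank, it was the one of the 25 tested regions with opposite sides at 2 times, which 6.51% of all distal regions also had. The capitals mark matches to C/EBP, NFY and FOXA, in this order, motifs held by 15.2%, 24.8% and 9.15% of distal regions.
Tet2, intron, chr3:133534198-133534397: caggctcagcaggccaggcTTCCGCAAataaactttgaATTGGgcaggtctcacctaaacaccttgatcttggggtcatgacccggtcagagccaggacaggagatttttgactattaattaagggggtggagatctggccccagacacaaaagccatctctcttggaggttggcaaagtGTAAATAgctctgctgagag
In Arid1a the strongest distal region was intronic, at chr4:133688294-133689062, ranked between 10774 and 36150 and overlapped 0 h at every time (mean difference 0.17 ± 0.45, adjusted p = 0.934, limma). In Ezh2 it lay in a coding exon at chr6:47533108-47534373, with ranks of 47102 and 44258 in undamaged liver, 74334 and 57235 at 48 h, 42055 and 56724 at 72 h, then 81456 and 64357 at 96 h. By rank it was weaker at 48 and 96 h, with a mean difference of −0.43 ± 0.33 (adjusted p = 0.706, limma). By percentile within the list 48 h overlapped 0 h.

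In Ezh1 the one tested region, intronic at chr11:101211969-101212260, ranked 65486 and 41717 in undamaged liver, 60545 and 73898 at 48 h, 83921 and 78516 at 72 h, then 89894 and 89701 at 96 h. By rank it was weaker at 72 and 96 h, with a mean difference of −0.59 ± 0.30 (adjusted p = 0.548, limma). By percentile within the list 72 h overlapped 0 h. In Dnmt1 the strongest distal region, between genes downstream of it at chr9:20901518-20901776, ranked 36878 and 27144 in undamaged liver, 48778 and 30097 at 48 h, 75563 and 72107 at 72 h, then 47833 and 86295 at 96 h. By rank, like the Dnmt1 promoter, it was weaker at 72 and 96 h and not at 48 h, and the mean difference was −0.84 ± 0.36 (unadjusted p = 0.0233, adjusted p = 0.466, limma). It lies nearer to the Eif3g promoter than to the used Dnmt1 starts. The regions of Eed, downstream at chr7:89952748-89954425, and of Hdac3, at chr18:37927794-37929252 in an intron of Diaph1, had mean differences of 0.03 ± 0.28 and −0.58 ± 0.37 (adjusted p = 0.982 and 0.637, limma). Uhrf1 had no distal region in all 8 lists.

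Regions could also appear or vanish. A distal region was gained at a time if both libraries, but no 0 h library, had it among their 100000 strongest intervals, and lost if the opposite held. Of the 136 distal regions that reached this level, 2 were gained and 3 lost at 48 h (1.29% and 2.97% of 165077 distal regions), 7 gained and 2 lost at 72 h (2.16% and 1.67%), and 3 gained and 2 lost at 96 h (1.44% and 1.96%). These came to 17 regions, 13 of them in introns of the gene itself. Their percentiles were low, and several were listed below this level in a library counted as lacking them. Leaving out 1 library moved the counts of gains and losses by more than 1.5 times, up to 21 regions gained at 48 h without its replicate 2, since a single library then sufficed.

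**Figure D5:**
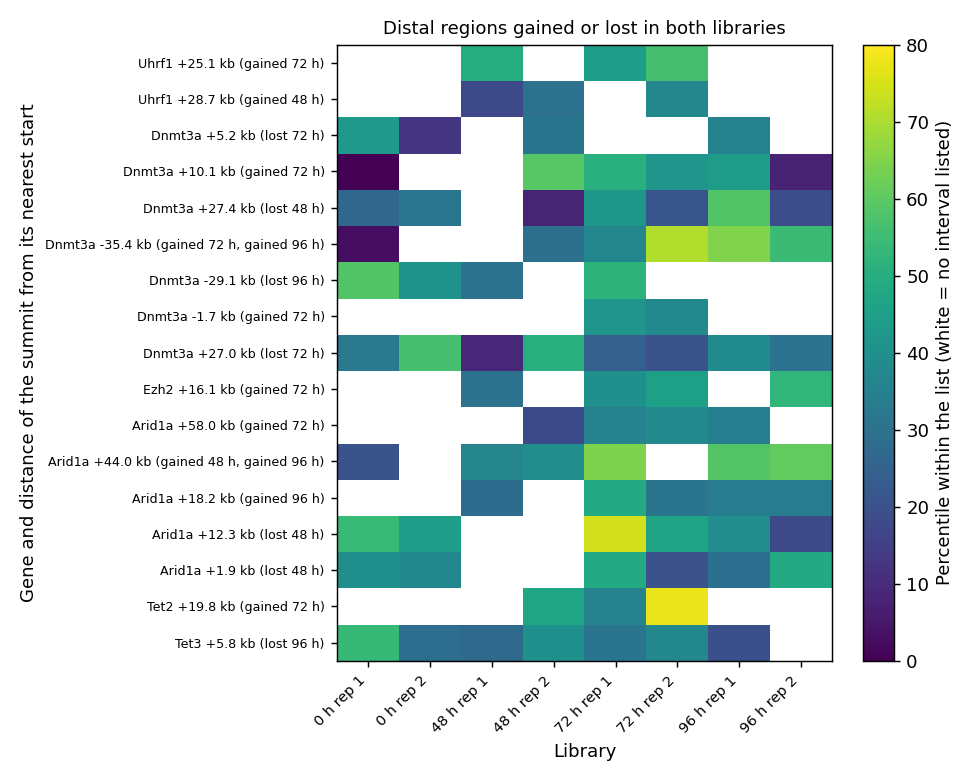
Percentile within the list (colour; white, no interval listed) of the 17 distal regions gained or lost at a time point, in the 8 libraries (columns). Rows name the gene, the distance of the summit from its nearest annotated start in the direction of transcription, and the change, and Dnmt3a and Arid1a hold most rows.

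Dnmt3a held 7 of the 17 and Arid1a 5, and they also held 34 and 22 of the 136 regions that could change. In Dnmt3a an intronic region at chr12:3856169-3856525 was gained at 72 and 96 h, with ranks of 88680 and 45146 and then of 51034 and 58094, against 123179 in 1 of the 0 h lists and no interval in the other. In Arid1a an intronic region at chr4:133709342-133709721 was gained at 48 h with ranks of 74989 and 84142 and at 96 h with 60098 and 49934, and at 72 h it was listed by replicate 1 alone, at 49689. In 0 h replicate 1 the same region was listed at 100890, just past the cutoff of 100000, and 0 h replicate 2 did not list it. Gains thus came back at a second time point in these 2 regions. The region gained by Tet2 at 72 h, at chr3:133524355-133524714, ranked 90492 and 34517 and was also listed by 48 h replicate 2. Ezh2 gained a region at 72 h at chr6:47561303-47561738, with ranks of 83921 and 84478. That region was also listed by 48 h replicate 1, at 82270, and by 96 h replicate 2, at 60315. Tet3 lost a region at 96 h at chr6:83450273-83451045, where the 0 h ranks had been 58930 and 74755. For Uhrf1 the region gained at 72 h, chr17:56329362-56329559, lay in an intron of its neighbour Kdm4b and ranked 77395 and 67561. It was also listed by 48 h replicate 1, at 58999. Dnmt1, Ezh1, Eed and Hdac3 had no gained or lost distal region.

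The promoters of 55 further genes of the same machineries, of which 52 had an interval in every list, were read the same way. With limma 0 of the 52 passed an adjusted p of 0.05 in any comparison with 0 h, and 8, 4, 1 and 5 had an unadjusted p under 0.05 at 48, 72 and 96 h and for the mean, against 12.5%, 9.86%, 5.28% and 10.6% of all promoters. Counted by separation, 5 of 52 were stronger and 18 weaker at 48 h (16.2% and 29.2% of all promoters), 5 and 23 at 72 h (14.6% and 32.2%), then 8 and 11 at 96 h (13.6% and 19.9%). Their median difference was −0.41 at 48 h, −0.50 at 72 h and −0.01 at 96 h, against −0.20, −0.24 and −0.09 for all promoters. By machinery, the median for the mean of the 3 times was −0.33 for 9 genes around Polycomb, −0.67 for 9 of DNA methylation, −0.01 for 16 of SWI/SNF and −0.37 for 18 of histone deacetylation. Pbrm1 of SWI/SNF and the deacetylase Hdac7 were stronger at all 3 times, with Hdac7 at 39811 and 46392 at 0 h and between 14184 and 31119 after PHx. Uhrf2, the paralog of Uhrf1, the methyl-CpG binder Mbd2 and the corepressor Sin3b were weaker at all 3 times. These were 2 of 52 against 4.14% of all promoters and 3 of 52 against 7.70%. Of these 5, Mbd2 had the largest difference at 48 h. It ranked 257 and 422 in undamaged liver, 2466 and 2208 at 48 h, 1270 and 778 at 72 h, then 528 and 767 at 96 h, and its difference of −2.82 ± 0.81 at 48 h had an unadjusted p of 0.00135 and an adjusted p of 0.170 (limma).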

How the data were processed

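ATAC-Seq libraries from hepatocytes of undamaged liver and of liver 48, 72 and 96 h past PHx, 2 per time, were analysed as grouped by the sample labels. According to the methods of the study, reads went through the ENCODE pipeline, with mapping to mm10 by Bowtie2 and peak calling per library by MACS2; versions are not given in the sources used here. The deposited lists give for each peak a display score, which was not used, a fold enrichment ratio over local background, and its p and q on the −log10 scale. They carry a p threshold of 0.01, an upper limit on peak number and a blacklist filter, so absence means absence from a list. Read depth is unknown.

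Lines sharing an interval were collapsed to the one with the highest −log10 p and ranked. Annotation was GENCODE M21 basic, sequence GRCm38.p6. Promoters were intervals within 1 kb of a coding start, windows gene bodies with 10 kb on each side, and merged regions intervals overlapping by at least 1 bp. Strength, −log2(rank), was fitted with limma 3.58.1 (R 4.3.3; all groups, moderated with a trend) on 13200 promoters and 57473 regions present in all 8 lists, after a check on simulated data. The replicate numbers do not pair libraries: the correlation of replicate differences between times ran from −0.086 to 0.12. The members and lists were chosen with earlier results of these data known. Named were all members, their alternative starts, per member the strongest distal region, called regions and the best region gained or lost, related genes called or separated from 0 h the same way at all 3 times, and the 3 promoters most like the member with the smallest F-test p; the Arid1a exon region and the Tet3 window region in Bola3 were added after their values were seen. Alternatives were other rankings, scales, windows, thresholds, overlaps, a replicate block and leaving out each library.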

Additional observations from a re-analysis of the deposited data

Results flagged for a closer look

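The intronic Tet2 region at chr3:133533965-133534660 was singled out because both 48 h libraries ranked it below and both 96 h libraries above both 0 h libraries. The difference between 96 and 48 h was 1.46 in −log2(rank), with an unadjusted p of 0.0324 and an adjusted p of 0.534 (limma over 57473 regions), so the opposite sides did not pass the test of the difference itself. The 72 h libraries ranked it 6169 and 20364. By percentile within the list, 48 h replicate 2 lay above 0 h replicate 1, so the opposite sides depended on the scale. By rank, the region was 1 of 25 tested regions on opposite sides of 0 h at 2 times, against 6.51% of all 44011 distal regions.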

How the results depend on the processing

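With limma 0 member promoters and 0 member distal regions were called under every ranking, scale, window and left-out library tried, and with the replicate block the counts were also 0 for both. The block changed no call of a member; over all promoters it gave 3 calls at 48 h against 6 and 0 for the mean against 3. Of 1007 recomputed values 892 kept their direction and side or moved little, 84 moved, 1 weakened and 30 reversed, and no reversed value had been called.

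Ranks by fold enrichment turned Dnmt1 at 48 h to −0.26, Eed at 72 h to 0.37, Tet2 at 96 h to −0.11, Tet3 at 72 h to −0.29 and the Dnmt3a region from 3911358 to −0.13. They also left 0 members under 0.05 in the exact pairing test, and 4 promoters weaker at 48 h. The logit of percentile turned Eed at 72 h to 0.32 and the Tet3 mean to 0.11, 200 bp summit windows turned the Hdac3 region from 37927794 to 0.16, and percentiles left 0 promoters weaker at 96 h. Without 1 library in turn, differences from 0 h ran from −1.03 to 0.0030 for Uhrf1 at 96 h, −0.16 to 0.29 for Dnmt3a at 48 h, −0.91 to 0.029 for Ezh1 at 96 h, −0.37 to 0.82 for Ezh2 at 96 h, −0.20 to 0.45 for Eed at 48 h, −0.95 to 0.87 for Eed at 72 h, −1.15 to 0.48 for Hdac3 at 96 h, −0.47 to 0.58 for Tet2 at 96 h, −0.51 to 0.93 and −0.34 to 1.10 for Tet3 at 72 and 96 h, and −0.85 to 0.58 for the Tet3 mean. Likewise the means of the distal regions ran from −0.26 to 0.42 for Dnmt3a from 3911358, −0.094 to 0.16 for Eed, −0.030 to 0.38 for Arid1a from 133688294 and −0.036 to 0.54 for Tet2 from 133533965. The cause was not tested.

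Without 1 library the distal regions gained ran from 2 to 21 at 48 h, 9 to 17 at 72 h and 3 to 20 at 96 h, and those lost from 4 to 17, 4 to 15 and 4 to 17, since each left-out library of the 2 groups relaxes the rule to 1 library. With the 50000 strongest intervals 1, 2 and 1 were gained at 48, 72 and 96 h. With all intervals 1 was gained and 5 lost at 48 h and 11 gained at 72 h, and with those at q under 0.05 1, 12 and 5 were gained and 1 was lost at 72 h. With 50% of a region covered 1 was gained at 48 h, 5 were lost at 72 h and 6 at 96 h. With gene bodies alone 1 was gained at 48 h and 1 lost at 72 h, and with summit windows 5 were lost at 48 h. Intervals in the windows averaged 37.5, 37, 37 and 36.5 at 0, 48, 72 and 96 h among the 50000 strongest and 101.5, 108.5, 129.5 and 115 among all. Over all promoters the calls ran, without 1 library, from 1 to 48 at 48 h, 0 to 6 at 72 h, 0 to 6 at 96 h and 0 to 110 for the mean, and across the other settings from 0 to 8 at 48 h, 0 to 3, 0 to 7 and 0 to 8.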
